A study of Homo sapiens with 12 samples.

Results

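Collagen chain genes were followed across 12 RNA sequencing libraries from 4 human cancer cell lines. The members were all genes of the count table whose symbol is COL, a number, A and a number, which leaves out antisense genes and pseudogenes. This gave 44 of the 57187 genes in the table. Breast cancer gave the lines MDA-MB-231 and HCC1954, and ovarian cancer the lines OVCAR8 and SKOV3 (written OVAR-8 and SKOV-3 in the labels). From each line came 1 library of parental cells, 1 of cells with *SIVA-WT* and 1 of cells with *SIVA-D160N*. *SIVA1* encodes a pro-apoptotic protein, and D160N is an amino acid change in it. The transfectants received a linearized vector that expresses the protein from the CMV promoter, by lipofection, and were then selected with hygromycin. The labels give the parental cells no treatment, while the study's supplement also calls them empty vector cells. In contrasts with parental cells, an effect of SIVA therefore cannot be told apart from an effect of transfection and selection. The *SIVA-WT* and *SIVA-D160N* cells both went through these steps, as separate cultures. All lines were cultured in RPMI-1640 with fetal bovine serum.

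Collagens are the triple-helical proteins of the extracellular matrix, and each gene encodes 1 kind of alpha chain. Fibrillar collagens (types I, II, III, V, XI, XXIV and XXVII) build fibrils, while type IV forms the sheet-like network of basement membranes. Type VI forms beaded microfilaments, type VII the anchoring fibrils under epithelia, and the FACIT collagens (IX, XII, XVI and others) sit on fibril surfaces. Types XIII, XVII, XXIII and XXV span the plasma membrane, and types XV and XVIII, the multiplexins, are basement membrane proteoglycans. Chains fold into trimers in the endoplasmic reticulum, from 1 kind of chain or from several. Where a trimer needs several kinds, the level of a partner chain can limit how much of it a cell makes. In carcinomas fibroblasts are the usual source of fibrillar collagen, and carcinoma cells are known mainly for type IV, VII, XVII and XVIII.

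The 6 type IV genes lie head to head in pairs, so that the sequence between 2 starts lies upstream of both genes of a pair. These stretches are shown because the members of a pair differed in how closely their levels went together in the results. Upstream sequences of *COL13A1* and *COL5A1* are shown because the levels of these chains ran over a wide range between lines. The starts of *COL4A1* and *COL4A2* are 126 bases apart (chr13:110307158-110307283), those of *COL4A3* and *COL4A4* 135 bases (chr2:227164489-227164623), and those of *COL4A5* and *COL4A6* 379 bases, of which the 250 next to *COL4A5* are printed (chrX:108439588-108439837). The 250 bases upstream of *COL13A1* are chr10:69801656-69801905 and those of *COL5A1* chr9:134641553-134641802. All are RefSeq sequences of GRCh38.p14, plus strand, 5′ to 3′, and end just before the transcribed part. Capitals mark CCAAT boxes (CCAAT), GC boxes (GGGCGG) and TATA boxes (TATAAA) on either strand.
COL4A1 and COL4A2, between their starts: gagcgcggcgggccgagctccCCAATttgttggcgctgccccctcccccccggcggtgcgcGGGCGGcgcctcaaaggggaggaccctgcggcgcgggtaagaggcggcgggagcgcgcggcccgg
COL4A3 and COL4A4, between their starts: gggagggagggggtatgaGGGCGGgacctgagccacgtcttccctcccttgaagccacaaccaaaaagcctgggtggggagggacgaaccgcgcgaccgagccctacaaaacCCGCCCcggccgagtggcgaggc
COL4A5, upstream, on the COL4A6 side: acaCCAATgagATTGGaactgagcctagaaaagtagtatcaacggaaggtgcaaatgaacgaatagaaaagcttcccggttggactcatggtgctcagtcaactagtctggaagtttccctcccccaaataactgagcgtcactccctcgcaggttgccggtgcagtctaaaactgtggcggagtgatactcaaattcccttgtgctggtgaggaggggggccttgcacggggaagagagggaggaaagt
COL13A1, upstream: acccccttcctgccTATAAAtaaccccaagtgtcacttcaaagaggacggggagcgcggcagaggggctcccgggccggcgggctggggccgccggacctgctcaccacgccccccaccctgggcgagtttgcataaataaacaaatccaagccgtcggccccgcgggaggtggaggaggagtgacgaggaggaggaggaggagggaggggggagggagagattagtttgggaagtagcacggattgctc
COL5A1, upstream: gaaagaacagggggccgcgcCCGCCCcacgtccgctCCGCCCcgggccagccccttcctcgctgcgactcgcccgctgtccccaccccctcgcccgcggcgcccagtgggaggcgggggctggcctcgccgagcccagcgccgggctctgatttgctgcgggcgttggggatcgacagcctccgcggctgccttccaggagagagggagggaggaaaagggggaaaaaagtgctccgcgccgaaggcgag

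The stretch between *COL4A1* and *COL4A2* held 1 CCAAT box and 1 GC box, and the stretch between *COL4A3* and *COL4A4* held 2 GC boxes. The bases upstream of *COL4A5* held 2 CCAAT boxes, those of *COL13A1* 1 TATA box and those of *COL5A1* 2 GC boxes. Of 35116 RefSeq promoters cut to 250 bases, 32.0% held a CCAAT box, 42.6% a GC box and 10.7% a TATA box. At 126 bases 21.1% held a CCAAT box and 34.6% a GC box, and at 135 bases 35.5% held a GC box. The AP-1 letters TGANTCA were also searched and were in none of the 5 windows, as against 6.57% of all promoters at 250 bases. These matches describe letters only. A promoter entry was found for 32 of the 44 chains.

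The libraries held 35791455 to 45890398 counts each. A count of 0 then allows a level of up to 0.0666 to 0.0852 CPM (counts scaled to library size), with 3 counts as the limit and counting error alone covered. *SIVA1* stood at 28.2, 80.6 and 68.5 CPM in parental, *SIVA-WT* and *SIVA-D160N* MDA-MB-231, at 65.8, 176 and 160 CPM in OVCAR8 and at 52.4, 106 and 111 CPM in SKOV3. In HCC1954 it stood at 0, 37.9 and 26.4 CPM, and the count of 0 goes against the label of the library labelled parental HCC1954, since the other parental libraries held 28.2 to 65.8 CPM. The counts of called chains, and the fitted values of the chains named in the condition contrasts and of the main chains of HCC1954, are therefore given without it too, while ratios within HCC1954 against parental cells and the breast-ovarian comparisons use it. *PAX8*, a marker of Mullerian epithelium, reached 75.8, 66.9 and 60.6 CPM in OVCAR8 and 229, 243 and 243 CPM in SKOV3 and at most 3.44 CPM in the breast lines. *ERBB2* was at 5709 CPM or more in HCC1954 and SKOV3, the lines known for its amplification. *GATA3*, a luminal breast marker, stood at 49.4, 42.4 and 47.1 CPM in HCC1954 but at 1.80, 2.85 and 1.93 CPM in MDA-MB-231, below OVCAR8 (5.87, 6.24 and 5.63 CPM), so that it did not mark MDA-MB-231 as breast. Of 5 antisense genes named after a collagen chain, none passed 3 counts in a library.

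All 44 chains had at least 1 count in some library, but 4 of them never passed 3 counts (*COL6A5*, *COL6A6*, *COL9A1* and *COL10A1*). Levels below are CPM scaled by edgeR's TMM method, and values in trios are in the order parental, *SIVA-WT*, *SIVA-D160N*. By this measure 33 chains reached 1 CPM in at least 1 library, 23 reached 10 CPM and 12 reached 100 CPM. Counted over lines, 11 chains passed 1 CPM in all 3 libraries of all 4 lines. These were *COL1A1*, *COL4A1*, *COL4A2*, *COL5A2*, *COL6A1*, *COL7A1*, *COL11A2*, *COL12A1*, *COL17A1*, *COL18A1* and *COL27A1*. A further 9 chains did so in 1 line alone, and 15 did so in none. The number of chains over 1 CPM in all libraries of a line was nearly the same in the 4 lines, with 19 for MDA-MB-231, 18 for HCC1954, 21 for OVCAR8 and 20 for SKOV3.

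**Figure D1:**
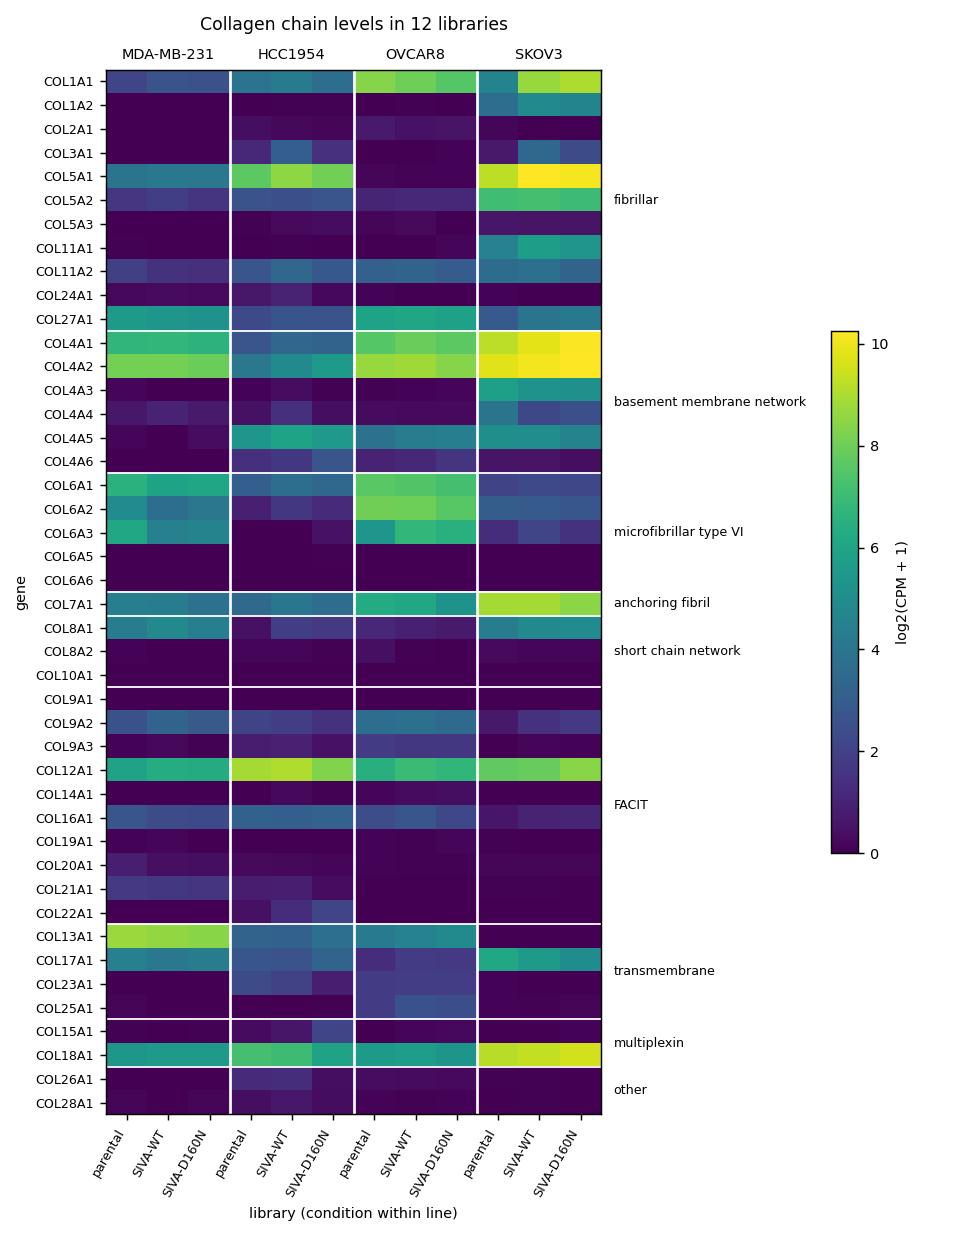
Heat map of log2(CPM + 1) for 44 collagen chain genes (rows, grouped by class) in 12 libraries (columns, grouped by line). SKOV3 is brightest in *COL4A1*, *COL4A2*, *COL5A1* and *COL18A1*, *COL13A1* is bright in MDA-MB-231 and dark in SKOV3, and most FACIT chains other than *COL12A1* are dark throughout.

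SKOV3 held the most collagen RNA. All chains together took 3754, 5375 and 5765 CPM in SKOV3, 1772, 1873 and 1478 CPM in OVCAR8, 1235, 1139 and 1052 CPM in MDA-MB-231 and 970.3, 1232 and 845 CPM in HCC1954. The SKOV3 libraries lay above all others and the OVCAR8 libraries above both breast lines, whose ranges overlapped. In such bulk libraries fewer expressing cells and less RNA per cell cannot be told apart. Each line also had its own composition. Type IV chains took 38.3% to 42.5% of the collagen counts in SKOV3, 34.3% to 37.7% in OVCAR8 and 31.2% to 33.9% in MDA-MB-231, against 6.65% to 12.3% in HCC1954. In HCC1954 the FACIT chains took 39.5% to 49.9%, nearly all of it *COL12A1*. Transmembrane chains took 34.9% to 35.5% in MDA-MB-231, and at most 2.60% in the other lines. Type VI chains took 28.2% to 29.1% in OVCAR8 and 8.32% to 15.4% in MDA-MB-231, but 1.37% or less in HCC1954 and 0.318% or less in SKOV3. The 3 chains with the most counts were *COL13A1*, *COL4A2* and *COL4A1* in every MDA-MB-231 library, and *COL12A1*, *COL5A1* and *COL18A1* in every HCC1954 library. These sums count reads and so weigh long transcripts more.

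**Figure D2:**
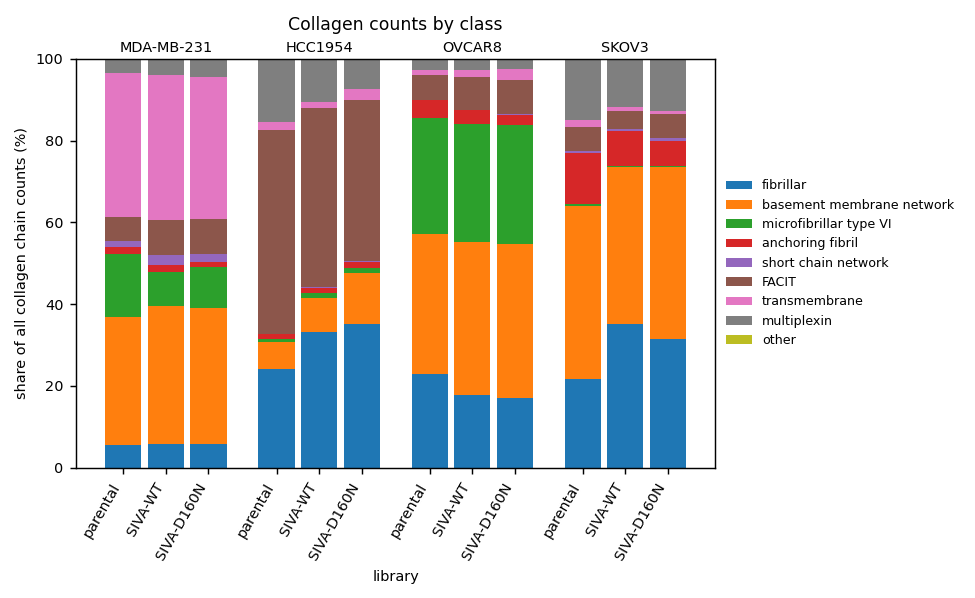
Stacked bars of the share (%) of all collagen chain counts taken by each collagen class in each of 12 libraries. The 3 libraries of a line resemble each other, with transmembrane chains at 34.9% to 35.5% in MDA-MB-231, FACIT chains at 39.5% to 49.9% in HCC1954 and type VI chains at 28.2% to 29.1% in OVCAR8.

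To ask which chains set a line apart, each line was compared with the mean of the other 3 in edgeR's quasi-likelihood test with the condition as a term. That mean is taken on the log scale. A line with almost no counts of a chain therefore pulls it far down and widens the log2 difference of the other lines. The 3 libraries of a line are versions of 1 line, so that the p-values measure the spread between such versions and not between separate tumors. A chain was called at an FDR (the p-value adjusted by Benjamini-Hochberg over all 19204 genes tested) under 0.05 with a log2 fold change of 1.5 or more in size. Of the 44 chains, 34 passed the filter on low counts. In SKOV3 16 of them were higher and 7 lower, while 14.7% of all genes were higher and 10.1% lower. OVCAR8 had 14 higher and 10 lower chains, beside 15.2% and 9.34% of all genes. HCC1954 had 11 higher and 13 lower chains, beside 16.8% and 11.1%, and 11 and 10 without the parental libraries. Without those libraries the HCC1954 log2 difference was -5.01 for *COL4A1*, -3.75 for *COL4A2*, -6.44 for *COL6A3*, 1.57 for *COL12A1* and 5.396 for *COL3A1*, each still called in the edgeR test. *COL5A1* was also still called, at 4.76. *COL18A1* was not called with or without them, at -0.01 and -0.33. In MDA-MB-231 6 were higher and 17 lower, beside 10.7% and 12.8%. A chain passes this filter by being present in at least 1 line, so these counts describe the 34 chains and not all 44. The median log2 fold change of the 34 was -1.86 for MDA-MB-231, -0.25 for HCC1954, 0.67 for OVCAR8 and 1.07 for SKOV3, beside medians of -0.06, 0.0042, -0.0073 and 0.03 over all genes tested. Among the 23 chains that reached 10 CPM or are *COL3A1*, SKOV3 was the highest line for 15, OVCAR8 for 5, HCC1954 for 2 and MDA-MB-231 for 1. The libraries of the highest line lay apart from the next line for 11, 4, 1 and 1 of these. A chain held by 1 line enters this list through that line, so the counts describe the list alone. The share of all genes that were highest in each line, or that lay apart from the next line there, was not counted.

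*COL1A1* encodes the main chain of type I collagen (chr17:50184101-50201631, GRCh38). It stood at 23.8, 407 and 502 CPM in SKOV3 and at 337, 255 and 185 CPM in OVCAR8. In the breast lines it stood at 13.9, 17.9 and 11.9 CPM (HCC1954) and 3.40, 5.15 and 4.76 CPM (MDA-MB-231). The ovarian libraries all lay above the breast libraries, but the SKOV3 and OVCAR8 ranges overlapped, because parental SKOV3 lay far below its own transfectants. Against the mean of the other lines the log2 difference was 3.40 ± 0.57 (SE), FDR 0.000234 in SKOV3 and 3.41 ± 0.52 (SE), FDR 0.000112 in OVCAR8. *COL1A2*, the partner chain, was found in SKOV3 alone, at 11.9, 29.4 and 23.6 CPM. The other 9 libraries held 0 to 2 counts of *COL1A2* each. Thus OVCAR8, with 259 ± 75.9 CPM of *COL1A1* (SD, n = 3), had no more than 2 counts of the partner chain in a library. Which type I trimers the cells made was not measured. In SKOV3 *COL1A1* per kb of transcript was 1.71 to 18.3 times *COL1A2* per kb, lowest in parental cells.

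*COL3A1*, the chain of type III collagen that accompanies type I in pliable tissues, was low. Its levels were 0.634, 10.2 and 4.20 CPM in SKOV3 and 1.26, 7.34 and 1.76 CPM in HCC1954, with the highest value of each line in the *SIVA-WT* library. The counts were 0, 0 and 3 in OVCAR8 and 1, 0 and 0 in MDA-MB-231, at or under the limit of 3 counts in every library of those lines. *COL3A1* was higher in SKOV3 and HCC1954 than in the mean of the other lines (FDR 2.32e-06 and 5.99e-06).

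*COL5A1* encodes the main chain of type V collagen, which nucleates type I fibrils and sets their width (chr9:134641803-134844843). It stood at 597, 1221 and 1096 CPM in SKOV3 and at 203, 364 and 267 CPM in HCC1954. MDA-MB-231 had 14.3, 16.1 and 15.8 CPM, and OVCAR8 0.109, 0.0783 and 0.0778 CPM or 4, 3 and 3 counts. No ranges overlapped between lines. The log2 difference from the mean of the other lines was 7.02 ± 0.14 (SE), FDR 1.05e-11 in SKOV3 and -10.78 ± 0.28 (SE), FDR 5.30e-11 in OVCAR8. The near absence from OVCAR8 widens the SKOV3 value, since by mean CPM SKOV3 was 3.50-fold above HCC1954, the next line. OVCAR8, rich in *COL1A1*, held almost no *COL5A1*. Its partner *COL5A2* reached 137, 148 and 129 CPM in SKOV3 and 1.06 to 5.60 CPM in the other lines, 27.0-fold lower in the next line. Per kb of transcript *COL5A1* was 3.53 to 6.90 times *COL5A2* in SKOV3 and 32.0 to 64.0 times in HCC1954, so that the balance of the 2 chains differed between these lines. *COL5A3*, a rarer type V chain, stayed at or under 0.555 CPM.

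The minor fibrillar chains, best known from cartilage, were also uneven. *COL11A1*, a chain of type XI collagen, stood at 22.4, 51.0 and 40.2 CPM in SKOV3, while each other library held at most 4 counts. Its log2 difference in SKOV3 was the widest upward one among the 34 chains, at 10.48 ± 0.34 (SE), FDR 3.62e-10. *COL11A2* was far more even, at 11.2, 12.8 and 8.71 CPM in SKOV3, 7.88, 9.01 and 6.88 in OVCAR8, 5.58, 9.43 and 5.99 in HCC1954 and 2.80, 1.87 and 1.61 in MDA-MB-231, and the ranges of the first 3 lines overlapped. *COL27A1* was higher in OVCAR8 (60.1, 65.4 and 57.3 CPM) and MDA-MB-231 (46.5, 39.7 and 37.8 CPM) than in SKOV3 (6.39, 14.6 and 16.9 CPM) and HCC1954 (3.84, 5.27 and 5.23 CPM). The OVCAR8 and MDA-MB-231 ranges did not overlap. *COL2A1*, the cartilage fibril chain, stayed at or under 0.680 CPM and *COL24A1* at or under 1.01 CPM.

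*COL4A1* and *COL4A2* form the type IV trimer of nearly all basement membranes (chromosome 13). *COL4A1* stood at 602, 909 and 1162 CPM in SKOV3, 189, 242 and 200.3 in OVCAR8, 106, 111 and 99.1 in MDA-MB-231 and 5.51, 9.32 and 8.72 in HCC1954. *COL4A2* followed the same order, with 891, 1076 and 1202, then 404, 439 and 335, then 279, 274 and 249 and then 15.8, 28.9 and 44.6 CPM. For both genes the 4 lines did not overlap with each other. HCC1954 was the line with little of either chain, at a log2 difference of -5.13 ± 0.20 (SE), FDR 7.44e-10 for *COL4A1* and -4.07 ± 0.27 (SE), FDR 7.25e-08 for *COL4A2*. *COL4A2* exceeded *COL4A1* per kb of transcript in all 12 libraries, by 1.05 to 1.502 times in SKOV3, 1.69 to 2.17 in OVCAR8, 2.502 to 2.68 in MDA-MB-231 and 2.91 to 5.19 in HCC1954. The 2 genes, which start 126 bases apart in the sequence above, kept a ratio of at most 5.19 while their levels ran from 5.51 to 1162 CPM for *COL4A1*.

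The second pair, *COL4A3* and *COL4A4*, belongs to the type IV network of the kidney filter. *COL4A3* was present in SKOV3 at 53.7, 37.7 and 34.0 CPM, and in the other lines at 0.276 CPM or less. *COL4A4* stood at 14.5, 3.72 and 4.69 CPM in SKOV3, 0.358, 1.63 and 0.284 in HCC1954, 0.577, 0.959 and 0.683 in MDA-MB-231 and 0.218, 0.209 and 0.208 in OVCAR8. Both were highest in SKOV3 without overlap (log2 difference 9.07 ± 0.29 (SE), FDR 3.62e-10 for *COL4A3* and 3.93 ± 0.45 (SE), FDR 1.15e-05 for *COL4A4*). Per kb, *COL4A3* was 4.59 to 12.6 times *COL4A4* in SKOV3, while *COL4A4* was the chain with more counts in all 9 libraries of the other lines. *COL4A5* and *COL4A6*, the X-linked pair, parted further. *COL4A5* stood at 41.2, 60.7 and 44.6 CPM in HCC1954, 33.9, 31.7 and 23.0 in SKOV3 and 13.2, 19.5 and 20.1 in OVCAR8, and at 0.0888, 0 and 0.268 CPM in MDA-MB-231, again without overlap. *COL4A6* had 1.60, 2.14 and 5.54 CPM in HCC1954, 1.03, 1.20 and 1.89 in OVCAR8 and 0.502, 0.470 and 0.319 in SKOV3, and no count in MDA-MB-231. Per kb, *COL4A5* was 8.25 to 29.0 times *COL4A6* in HCC1954, 10.9 to 16.6 times in OVCAR8 and 69.0 to 73.7 times in SKOV3.

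**Figure D3:**
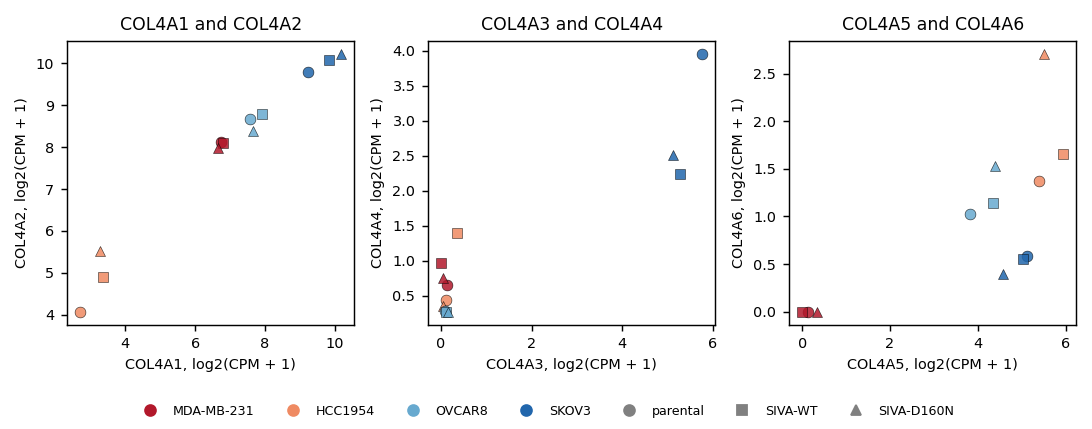
Scatter plots of log2(CPM + 1) for the 3 head-to-head type IV gene pairs, 1 point per library, colored by line and shaped by condition. *COL4A1* and *COL4A2* rise together over all 4 lines, *COL4A3* is high in SKOV3 alone, and *COL4A6* stays under 6 CPM where *COL4A5* reaches 60.7 CPM.

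Type VI collagen is built from *COL6A1*, *COL6A2* and mostly *COL6A3*. *COL6A1* stood at 196, 177 and 148 CPM in OVCAR8, 92.3, 61.3 and 65.4 in MDA-MB-231, 7.37, 12.01 and 9.69 in HCC1954 and 3.33, 3.78 and 3.51 in SKOV3. *COL6A2* stood at 264, 251 and 191 CPM in OVCAR8 and 29.6, 12.2 and 15.6 in MDA-MB-231, at 7.05, 6.58 and 5.67 in SKOV3 and at 0.882, 2.16 and 1.42 in HCC1954. For both chains the lines did not overlap. *COL6A3* stood at 40.6, 111 and 91.1 CPM in OVCAR8, 68.8, 21.3 and 22.8 in MDA-MB-231 and 1.56, 3.36 and 1.82 in SKOV3, and its counts were 1, 1 and 15 in HCC1954. Here OVCAR8 and MDA-MB-231 overlapped, since parental MDA-MB-231 lay above parental OVCAR8 and the transfectants lay the other way round. All 3 chains were higher in OVCAR8 than in the mean of the other lines, with log2 differences of 3.67 ± 0.14 (SE), FDR 9.99e-10 (*COL6A1*), 5.37 ± 0.21 (SE), FDR 1.43e-09 (*COL6A2*) and 5.13 ± 0.46 (SE), FDR 1.34e-06 (*COL6A3*). All 3 were lower in HCC1954 and in SKOV3, while *COL6A1* and *COL6A3* were higher in MDA-MB-231 (2.01 ± 0.14 (SE), FDR 2.25e-07 for *COL6A1* and 3.65 ± 0.49 (SE), FDR 4.38e-05 for *COL6A3*). In HCC1954 *COL6A3* stood at a log2 difference of -7.02 ± 0.83 (SE), FDR 1.17e-05. In SKOV3 the *COL6A3* call was lost with DESeq2 (FDR 0.0586), with limma-voom (FDR 0.112) and without the *SIVA-D160N* libraries (FDR 0.61). *COL6A2* was just past the fold threshold in SKOV3 and lost the call with limma-voom (-1.48) and without the *SIVA-WT* libraries (-1.49), from a value of -1.54.

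*COL7A1* encodes the chain of anchoring fibrils, which tie epithelial basement membranes to the stroma. It stood at 472, 463 and 354 CPM in SKOV3 and 77.5, 67.1 and 37.7 in OVCAR8, against 19.8, 18.7 and 13.6 in MDA-MB-231 and 10.6, 15.1 and 11.7 in HCC1954. SKOV3 was 7.07-fold above the next line, and its log2 difference was 4.20 ± 0.12 (SE), FDR 2.04e-10. *COL8A1*, a short chain collagen of vessel walls and the cornea, was shared by SKOV3 (19.0, 28.2 and 29.9 CPM) and MDA-MB-231 (19.0, 27.3 and 20.1 CPM), whose ranges overlapped. It stood at 0.381, 2.78 and 2.24 CPM in HCC1954 and 1.25, 0.862 and 0.675 in OVCAR8, while its partner *COL8A2* held at most 13 counts in a library.

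Among FACIT chains *COL12A1*, which coats type I fibrils in tendon and fascia, was the abundant one (chr6:75084326-75206053). It stood at 471, 526 and 319 CPM in HCC1954 and 212, 232 and 348 in SKOV3, ranges that overlapped, and at 87.5, 127 and 107 in OVCAR8 and 59.0, 81.5 and 77.6 in MDA-MB-231. The log2 difference was 1.80 ± 0.16 (SE), FDR 8.85e-07 in HCC1954 and -1.68 ± 0.19 (SE), FDR 1.03e-05 in MDA-MB-231. *COL9A2*, a chain of cartilage type IX, stood at 12.2, 12.9 and 10.6 CPM in OVCAR8, 4.99, 8.58 and 6.22 in MDA-MB-231, 3.24, 2.60 and 1.85 in HCC1954 and 0.607, 1.75 and 2.23 in SKOV3. *COL9A3* reached 2.15 to 2.47 CPM in OVCAR8 and stayed under 1 CPM elsewhere. *COL16A1* was lowest in SKOV3, at 0.555, 1.01 and 1.08 CPM, against 3.63 to 8.35 CPM in the other lines. *COL21A1* marked the breast lines, with 2.29, 2.15 and 1.93 CPM in MDA-MB-231 and 0.763, 0.805 and 0.256 in HCC1954, 0.0528 CPM or less in SKOV3 and no count in OVCAR8. *COL22A1* was counted in HCC1954 alone, with 15, 66 and 120 counts and none in the other 9 libraries. *COL14A1*, *COL19A1* and *COL20A1* stayed under 1 CPM.

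The transmembrane chain *COL13A1*, known from cell-matrix adhesions and the neuromuscular junction (chr10:69801906-69959144), was the chain of MDA-MB-231. It stood at 415, 389 and 348 CPM in MDA-MB-231, at 17.5, 22.1 and 28.5 in OVCAR8 and at 8.70, 7.98 and 12.5 in HCC1954. Each SKOV3 library held 1 count. MDA-MB-231 was 16.9-fold above OVCAR8, at a log2 difference from the mean of the other lines of 7.75 ± 0.15 (SE), FDR 2.79e-11. *COL17A1*, the hemidesmosome collagen, stood at 68.0, 46.4 and 30.5 CPM in SKOV3 and 21.0, 16.1 and 18.9 in MDA-MB-231, 5.65, 5.13 and 8.66 in HCC1954 and 1.55, 2.56 and 2.39 in OVCAR8, without overlap between lines. *COL25A1* was an OVCAR8 chain, at 2.501, 4.94 and 4.57 CPM against 0.0982 CPM or less elsewhere (log2 difference 6.71 ± 0.42 (SE), FDR 6.38e-08). *COL23A1* was shared by HCC1954 (4.17, 2.92 and 0.795 CPM) and OVCAR8 (2.45, 2.66 and 2.65 CPM), and had no count in MDA-MB-231.

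*COL18A1*, the precursor of endostatin (chr21:45405165-45513720), stood at 562, 635 and 742 CPM in SKOV3 and 148, 129 and 58.5 in HCC1954. OVCAR8 had 47.3, 52.4 and 38.2 CPM and MDA-MB-231 41.6, 45.0 and 45.8, ranges that overlapped. SKOV3 was 5.78-fold above HCC1954 (log2 difference from the mean of the other lines 3.44 ± 0.19 (SE), FDR 1.80e-08). *COL15A1*, the other multiplexin, stood at 0.238, 0.529 and 3.41 CPM in HCC1954 and at 0.156 CPM or less elsewhere. *COL26A1* reached 1.43, 1.52 and 0.284 CPM in HCC1954 and *COL28A1* 0.310, 0.598 and 0.256 CPM.

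The study asked what *SIVA-D160N* changes, so the conditions were compared over the 4 lines (n = 4) with the line as a term, in the same edgeR test. No collagen chain passed the thresholds in any contrast. The study's supplement, with edgeR and the same thresholds, lists *COL3A1* among the genes that differ between *SIVA-D160N* and control cells. The supplement's list is far longer than the 1 of 17211 genes that passed here, so *COL3A1* is not alone in differing from it. Its filter is described as leaving out non-expressing genes and genes without an EntrezGene ID. Here *COL3A1* passed in that contrast only when the filter on low counts was left out. Of 28 chains tested, 0 passed in *SIVA-D160N* vs parental, where 0.00581% of all 17211 genes did, and 0 passed in *SIVA-WT* vs parental and in *SIVA-D160N* vs *SIVA-WT*, where 0% and 0% did. DESeq2 and limma-voom also called 0 chains, as did the edgeR test without HCC1954. When all 34909 genes with a count were tested, 3 chains passed in *SIVA-D160N* vs parental (*COL3A1*, *COL15A1* and *COL22A1*), 1 in *SIVA-WT* vs parental (*COL3A1*) and 0 in *SIVA-D160N* vs *SIVA-WT*. Of all 34909 genes 172, 10 and 59 passed in the same order. *COL15A1* and *COL22A1* were counted mainly in HCC1954, so their calls rest on the library labelled parental HCC1954. At an unadjusted p under 0.05 there were 6 chains in *SIVA-D160N* vs parental (4 up and 2 down), beside 14.2% of all genes. There were 3 chains in *SIVA-WT* vs parental, all up, beside 2.54%, and 4 chains in *SIVA-D160N* vs *SIVA-WT*, all down, beside 6.88%. The contrasts with parental cells share the 4 parental libraries. The median log2 fold change of the 28 chains was -0.07, 0.10 and -0.21 in the 3 contrasts, beside -0.0090, -0.0054 and -0.0029 over all genes. Between the transfectants, 24 of the 28 chains had a lower and 4 a higher fitted level with the mutant. The share of all genes that were lower was not counted. The chains come from the same libraries, so the 28 signs are not independent, and the lowest FDR among them was 0.719.

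*COL3A1* had the widest differences from parental cells, and its levels are those given above. Its log2 fold change was 2.98 ± 0.57 (SE), unadjusted p = 0.000280, FDR 1.00 in *SIVA-WT* vs parental, and 1.59 ± 0.59 (SE), unadjusted p = 0.0204, FDR 0.274 in *SIVA-D160N* vs parental. In *SIVA-D160N* vs *SIVA-WT* it was -1.40 ± 0.52 (SE), unadjusted p = 0.0209, FDR 0.719. These values rest on SKOV3 and HCC1954, since the other 2 lines hardly held the transcript. Without SKOV3 the edgeR value in *SIVA-D160N* vs parental was 0.64 (FDR 0.75), and without HCC1954 it was 2.71 (FDR 0.354). In *SIVA-WT* vs parental it was 2.27 (FDR 0.956) without SKOV3 and 3.70 (FDR 0.931) without HCC1954. When every gene with a count was tested, in place of the filtered genes, *COL3A1* passed in both contrasts, at FDR 4.95e-05 in *SIVA-WT* vs parental and FDR 0.0351 in *SIVA-D160N* vs parental. *COL5A1* had 0.67 ± 0.16 (SE), unadjusted p = 0.00131, FDR 1.00 in *SIVA-WT* vs parental, with positive ratios in MDA-MB-231, HCC1954 and SKOV3. Its *SIVA-D160N* value was 0.45 ± 0.16 (SE), unadjusted p = 0.0147, FDR 0.252. *COL4A1* was positive in all 4 lines in *SIVA-WT* vs parental (0.42 ± 0.15 (SE), unadjusted p = 0.0201, FDR 1.00). *COL4A6* had 0.92 ± 0.40 (SE), unadjusted p = 0.0485, FDR 0.348 in *SIVA-D160N* vs parental. On the negative side *COL7A1* had -0.51 ± 0.15 (SE), unadjusted p = 0.00565, FDR 0.719 in *SIVA-D160N* vs *SIVA-WT*, with a negative ratio in all 4 lines. Its value in *SIVA-D160N* vs parental was -0.48 ± 0.15 (SE), unadjusted p = 0.00799, FDR 0.219. *COL26A1*, present mainly in HCC1954, had -1.56 ± 0.49 (SE), unadjusted p = 0.0114, FDR 0.719 against *SIVA-WT* and -1.57 ± 0.49 (SE), unadjusted p = 0.0110, FDR 0.233 against parental cells. *COL11A2* and *COL4A1* complete the counts, with -0.48 for *COL11A2* in *SIVA-D160N* vs *SIVA-WT* and 0.39 for *COL4A1* in *SIVA-D160N* vs parental. Of these values none passed the correction over all filtered genes. Without HCC1954, *COL5A1* had 0.58 (FDR 1.00) in *SIVA-WT* vs parental and 0.49 (FDR 0.474) in *SIVA-D160N* vs parental, and *COL7A1* had -0.55 (FDR 1.00) in *SIVA-D160N* vs *SIVA-WT*. *COL4A1* had 0.33 (FDR 1.00) in *SIVA-WT* vs parental, and *COL4A6* 0.30 (FDR 0.877) in *SIVA-D160N* vs parental. In *SIVA-D160N* vs parental without HCC1954, *COL7A1* had -0.66 (FDR 0.297) and *COL4A1* 0.32 (FDR 0.593). In *SIVA-D160N* vs *SIVA-WT* without HCC1954, *COL11A2* had -0.41 and *COL3A1* -0.98. *COL26A1* did not pass the filter on low counts without HCC1954.

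Whether breast and ovarian lines differed in their response was tested as an interaction term with edgeR. At an FDR under 0.05 it gave 0 of 28 chains for *SIVA-D160N* vs parental and 0 for *SIVA-WT* vs parental, beside 0.00581% and 0% of all genes. At an unadjusted p under 0.05 it gave 3 and 2 chains, beside 5.06% and 1.78%.

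Single lines held larger differences than the contrasts over 4 lines, although each rests on 1 library per condition and has no replicate check. Of the 34 chains, SKOV3 had 11 that differed at least 2-fold in *SIVA-WT* vs parental (9 up), beside 6.54% of all genes, and 7 in *SIVA-D160N* vs parental (4 up), beside 9.41%. Between its transfectants 1 chain did, beside 3.62%. HCC1954 had 7 in *SIVA-WT* vs parental (all up) beside 4.86%, and 10 in *SIVA-D160N* vs parental (6 up) beside 11.2%. It had 11 in *SIVA-D160N* vs *SIVA-WT* (8 down) beside 9.94%, a contrast that does not use the parental library. OVCAR8 had 2, 4 and 4 in the same order of contrasts, beside 3.81%, 4.13% and 3.5%. MDA-MB-231 had 6, 4 and 2, beside 4.99%, 7.11% and 4.24%. In MDA-MB-231 *COL4A3*, *COL4A5*, *COL9A3* and *COL25A1* were past 2-fold on at most 11 counts in a library. In OVCAR8 *COL1A2*, *COL3A1*, *COL5A3* and *COL11A1* were so on at most 7 counts, which leaves *COL6A3* in both contrasts with parental cells and *COL7A1* in *SIVA-D160N* vs parental (2.05-fold lower). In SKOV3 *COL2A1* and *COL9A3* held at most 5 counts, and in HCC1954 *COL4A3*, *COL5A3* and *COL6A3* at most 15.

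*COL1A1* in SKOV3 was the chain that differed most. Its 23.8, 407 and 502 CPM put *SIVA-WT* 17.1-fold and *SIVA-D160N* 21.1-fold above parental cells. In OVCAR8 it went the other way, from 337 CPM in parental cells to 185 CPM in *SIVA-D160N*, which was 1.82-fold lower, and in the breast lines it stayed within 2-fold. Over the 4 lines its edgeR log2 fold change was 0.56 ± 0.67 (SE), unadjusted p = 0.417, FDR 0.742, in *SIVA-D160N* vs parental. Of the other 8 fibrillar chains of SKOV3 that passed 3 counts in every library, 5 were also higher in both transfectants. *COL3A1* was 14.9-fold (*SIVA-WT*) and 6.21-fold (*SIVA-D160N*) above parental cells, *COL1A2* 2.46- and 1.97-fold, *COL11A1* 2.27- and 1.79-fold, *COL5A1* 2.04- and 1.84-fold, and *COL27A1* 2.27- and 2.63-fold. *COL5A2* was 1.08 and 0.9404 times the parental level, *COL11A2* 1.14 and 0.777 times, and *COL5A3*, on 19 to 21 counts, 0.823 and 0.854 times. *COL2A1* and *COL24A1* held at most 4 counts. Type IV chains of SKOV3 parted. *COL4A1* was 1.51- and 1.93-fold above parental cells, while *COL4A4* was 3.88- and 3.08-fold below and *COL4A3* 1.43- and 1.58-fold below. *COL17A1* was 1.46- and 2.23-fold below. Between the SKOV3 transfectants the 1 chain past 2-fold was *COL3A1*, 2.41-fold lower in *SIVA-D160N*.

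**Figure D4:**
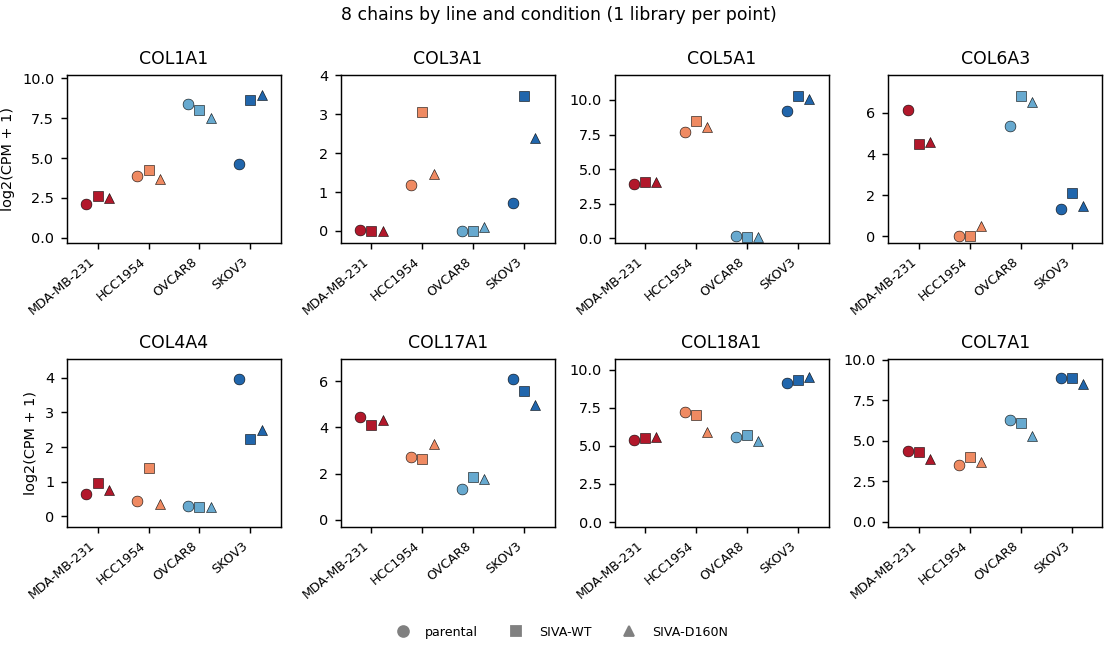
Points give log2(CPM + 1) of 8 chains in each library, by line on the x axis and by condition in the shape. *COL1A1* in parental SKOV3 (23.8 CPM) lies far under its transfectants (407 and 502 CPM), and *COL6A3* is highest in the parental library of MDA-MB-231 and lowest in that of OVCAR8.

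*COL6A3* went in opposite directions in its 2 highest lines. In MDA-MB-231 it was 3.22-fold (*SIVA-WT*) and 3.02-fold (*SIVA-D160N*) below parental cells, and in OVCAR8 it was 2.73- and 2.24-fold above. In SKOV3, at 59, 150 and 74 counts, it was 2.12- and 1.16-fold the parental level. *COL6A1* and *COL6A2* of MDA-MB-231 were lower too, *COL6A2* by 2.43- and 1.90-fold. In OVCAR8 they were not higher, at 0.722 to 0.951 times the parental level. In HCC1954 *COL8A1* was 6.57- and 5.32-fold above the parental library, and *COL4A2* 1.83- and 2.81-fold above. *COL18A1* was 2.53-fold lower in *SIVA-D160N* than in the parental library of HCC1954, and 2.20-fold lower than in *SIVA-WT*, which does not use that library. *COL3A1* of HCC1954 was 5.63-fold above the parental library in *SIVA-WT*, and 4.08-fold lower in *SIVA-D160N* than in *SIVA-WT*. Of the 23 chains, 3 had ratios of 1 sign in all 4 lines in *SIVA-WT* vs parental. These were *COL4A1*, *COL12A1* and *COL1A2*, all positive, with *COL1A2* on at most 2 counts outside SKOV3. In *SIVA-D160N* vs *SIVA-WT* there were 3, *COL5A1*, *COL7A1* and *COL11A2*, all negative, and in *SIVA-D160N* vs parental 0. The share of all genes with 1 sign in all 4 lines was not counted.

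**Figure D5:**
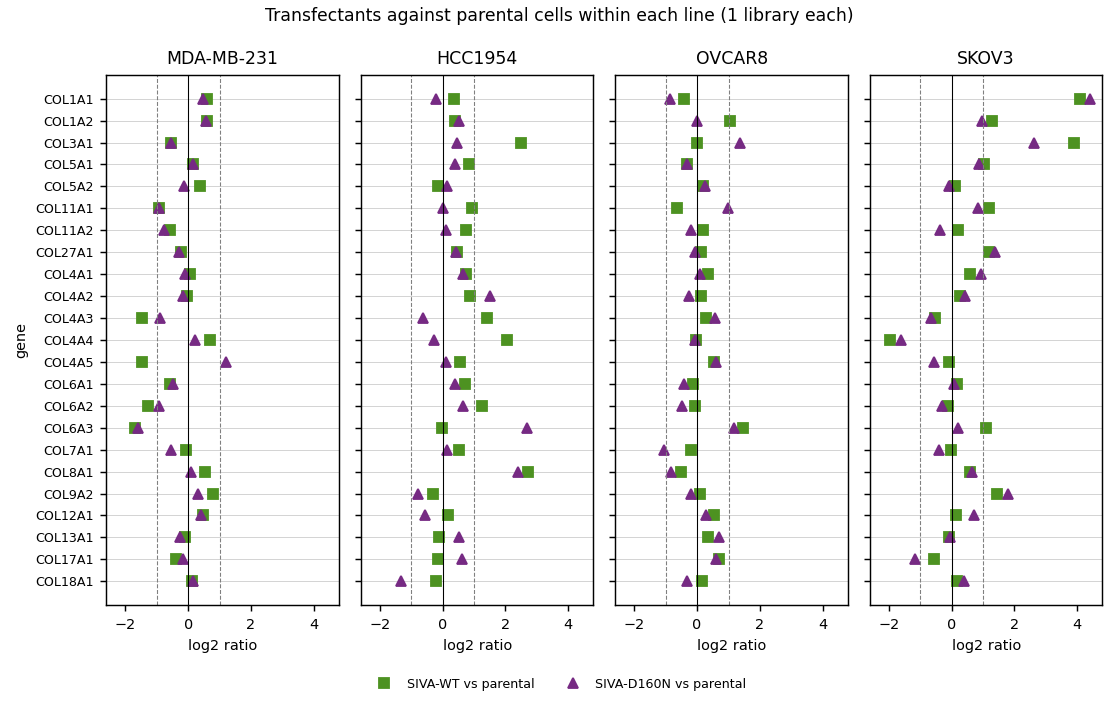
Log2 ratios (x axis) of 23 chains in *SIVA-WT* and *SIVA-D160N* transfectants against parental cells, 1 panel per line and 1 library per condition, with dashed lines at 2-fold. *COL1A1* and *COL3A1* stand out to the right in SKOV3, *COL4A4* to the left in SKOV3, and *COL6A3* lies left in MDA-MB-231 and right in OVCAR8.

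Breast and ovarian lines were also set side by side, 6 libraries against 6. The difference in level was not tested, and values alone are given. Of 33 chains that reached 1 CPM, 6 did not overlap between the tissues, while 14.2% of all such genes did not. *COL1A1*, *COL4A1*, *COL4A2* and *COL7A1* were higher in the ovarian libraries. *COL21A1* and *COL24A1* were higher in the breast libraries, at levels of 2.29 CPM or less.

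Genes that fold, export, process and bind collagen were read from lists of 52 genes. In the condition contrasts none passed the thresholds of the edgeR test. At an unadjusted p under 0.05 there were 3, 0 and 1 of 20 biosynthesis genes in *SIVA-D160N* vs parental, *SIVA-WT* vs parental and *SIVA-D160N* vs *SIVA-WT*, and 5, 2 and 0 of 14 processing genes, all up. There were 1, 1 and 0 of 7 secretion genes and 1, 0 and 1 of 9 receptors, to be read against the 14.2%, 2.54% and 6.88% of all genes above. Of 20 biosynthesis genes all were tested in the line contrasts, and 2, 2, 4 and 4 were higher and 0, 3, 2 and 3 lower in MDA-MB-231, HCC1954, OVCAR8 and SKOV3, shares to be read against the percentages of all genes above. *FKBP10*, a collagen prolyl isomerase, stood at 236, 235 and 204 CPM in OVCAR8 and at 2.62 CPM or less in the other lines (log2 difference 8.25 ± 0.22, FDR 5.85e-11). *P3H3* and *P3H2* belong by name to the prolyl 3-hydroxylase family. *P3H3* was lowest in HCC1954 at 0.381, 0.759 and 0.256 CPM (-5.61 ± 0.23, FDR 1.35e-09), and *P3H2* lowest in OVCAR8 at 7.21, 6.82 and 5.501 CPM (-4.26 ± 0.18, FDR 2.55e-09). The lysyl hydroxylase *PLOD1* was highest in SKOV3 at 623, 701 and 549.6 CPM (1.93 ± 0.09, FDR 6.49e-09), and *PLOD2* highest in HCC1954 at 182, 268 and 328 CPM (2.06 ± 0.12, FDR 2.33e-08). *COLGALT2*, a collagen galactosyltransferase, had 9.46, 10.5 and 10.4 CPM in OVCAR8 and at most 2 counts in a SKOV3 library. *CREB3L1*, a membrane-bound transcription factor known to switch on *COL1A1*, stood at 64.1, 63.1 and 64.5 CPM in MDA-MB-231, 52.1, 42.4 and 39.1 in OVCAR8, 10.7, 44.6 and 47.8 in SKOV3 and 0.715, 1.70 and 0.284 in HCC1954. In SKOV3 *CREB3L1* and *COL1A1* were both lowest in the parental library. In OVCAR8 both were highest in the parental and lowest in the *SIVA-D160N* library, and in HCC1954 both were highest in *SIVA-WT*. In MDA-MB-231 *CREB3L1* was high beside a *COL1A1* level of 5.15 CPM or less. Each value is 1 library, and a link between the 2 genes was not tested.

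Of 14 genes for propeptide processing and crosslinking, 1, 3, 7 and 8 were higher and 4, 5, 1 and 4 lower in MDA-MB-231, HCC1954, OVCAR8 and SKOV3, where 10.7%, 16.8%, 15.2% and 14.7% of all genes were higher and 12.8%, 11.1%, 9.34% and 10.1% lower. *PXDN*, the peroxidase that crosslinks type IV collagen, was highest in the breast lines. It stood at 194, 198 and 189 CPM in MDA-MB-231 and 236, 255 and 253 in HCC1954, but at 11.4, 5.42 and 4.37 in SKOV3 and 0.653, 0.575 and 0.701 in OVCAR8, the lines with the most *COL4A1* and *COL4A2* (log2 difference -6.74 ± 0.30, FDR 4.33e-09 in OVCAR8). *ADAMTS2*, which cuts the amino-terminal propeptide of type I collagen, stood at 13.7, 13.997 and 11.3 CPM in OVCAR8 and 1.32, 1.39 and 2.11 in SKOV3, and at 0.122 CPM or less in the breast lines. *BMP1* and *TLL1* cut the other propeptide. Both were highest in SKOV3, *BMP1* at 179, 245 and 229.6 CPM and *TLL1* at 8.87, 16.3 and 16.6 CPM (log2 difference 6.95 ± 0.28, FDR 1.84e-08). *LOX* and *LOXL2*, lysyl oxidases, were also highest in SKOV3, at 13.1, 22.9 and 28.6 and 341, 484 and 534 CPM. In both, parental cells were the lowest of the 3 SKOV3 libraries. Of 7 secretion genes tested, none passed in any line.

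Of 9 collagen receptors tested, 3, 3, 2 and 2 were higher and 0, 1, 2 and 1 lower in the same 4 lines, beside 10.7%, 16.8%, 15.2% and 14.7% of all genes higher and 12.8%, 11.1%, 9.34% and 10.1% lower. *ITGA2*, the integrin subunit that binds type I collagen, stood at 290.5, 218 and 183 CPM in MDA-MB-231, 65.9, 82.0 and 242 in HCC1954, 30.1, 18.8 and 16.1 in SKOV3 and 1.63, 2.35 and 3.17 in OVCAR8. *ITGA1*, which prefers type IV, was highest in SKOV3 at 40.7, 54.3 and 59.98 CPM (log2 difference 2.56 ± 0.12, FDR 6.07e-09). The receptor kinase *DDR1* was highest in HCC1954 at 363, 281 and 229 CPM (3.27 ± 0.09, FDR 6.53e-11). *MRC2*, an endocytic collagen receptor, stood at 206, 226 and 198 CPM in SKOV3, 148, 177 and 129.7 in OVCAR8, 46.6, 41.4 and 35.99 in MDA-MB-231 and 4.08, 7.02 and 3.18 in HCC1954.

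Since fibroblasts are the usual source of fibrillar collagen, 7 fibroblast markers were summed. They came to 2.53 to 3.34 CPM in SKOV3, the line with the most collagen, 3.98 to 5.15 in MDA-MB-231, 8.07 to 9.27 in OVCAR8 and 42.0 to 98.0 in HCC1954. Between 4 and 6 of the 7 passed 3 counts in a SKOV3 library, 3 did in HCC1954 and OVCAR8, and 2 in MDA-MB-231. *DCN* and *LUM*, secreted matrix proteins of fibroblasts, were at 0.368 and 0.739 CPM or less in SKOV3, and *DCN* was at 0 in the 9 libraries of the other lines. *THY1* had at most 5 counts in a library. The HCC1954 sum came from *FAP* (24.9, 61.6 and 54.0 CPM) and *ACTA2* (17.0, 36.1 and 13.3 CPM). The 7 mesenchymal markers summed to 3509 to 4321 CPM in the 3 lines other than HCC1954, and to 264, 540 and 556 CPM in HCC1954, where at least 6 of 7 passed 3 counts in each library. The 7 epithelial markers summed to 6627 to 8442 CPM in HCC1954, 2839 to 3479 in OVCAR8, 792 to 880 in SKOV3 and 674 to 734 in MDA-MB-231. Their part in the collagen levels was not tested.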

How the data were processed

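RNA of 12 cultures was sequenced by the authors from Illumina TruSeq Stranded mRNA libraries. Per the labels and the study's methods, reads were checked with FastQC and aligned with STAR 2.5.3a to GRCh38, and the authors deposited raw counts per gene. The annotation release and the strand setting of the counting are not given in the sources used here. A second deposited table holds the authors' scaled values of the same libraries and was not used. Total counts ran from 35791455 to 45890398, and of 66 pairs of libraries 0 were identical.

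From the counts, TMM-scaled CPM were computed with edgeR 4.0.16 (R 4.3.3). Conditions were compared with glmQLFit and glmQLFTest with cell line as a term (17211 genes after filterByExpr), and each line with the mean of the other 3 with condition as a term (19204 genes). Calls needed a Benjamini-Hochberg FDR under 0.05 over all genes and a log2 fold change of 1.5 or more in size. Ratios within a line used a prior count of 2 and have no test. Comparisons between chains used CPM per kb of transcript length (GENCODE), in place of the coding length planned. DESeq2 1.42.0, limma-voom (limma 3.58.1) and other filters and scalings served as alternatives. Scripts were tested on simulated data. Libraries of one line deviated together from their condition means (r 0.929 to 0.968 for 12 pairs of the same line, -0.446 to -0.192 for 54 other pairs), and the line is a term of the model.

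Values per library are given for chains that reached 10 CPM in any library and for COL3A1. For condition contrasts without calls, up to 3 chains in each direction with an unadjusted p under 0.05 were named by size, and COL11A2 and the smaller COL4A1 value were added after values were seen, as were the other low chains. For line contrasts up to 4 higher and 3 lower chains, and up to 2 companion genes in each direction of a list, were named by size, with further companion genes chosen after values were seen. The members and lists were chosen with earlier results of these data known. Each combination of line and condition is 1 library, so that the 4 lines serve as replicates of a condition.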

Additional observations from a re-analysis of the deposited data

Results flagged for a closer look

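For each chain, the 4 lines were compared by level within a condition and by log2 ratio within a contrast. A line was singled out where its gap to the nearest other line took more than 0.829 of the range of the 4. This is Dixon's 95% critical value for 4 values. Of 138 such sets 14 were singled out. No chance expectation can be set beside this count, because the sets share chains and libraries. The chains were also kept for reaching 10 CPM in any library, so a chain held by 1 line enters through that line. Most were chains of SKOV3. COL1A2 stood at a log2 CPM of 3.58 in parental cells, 4.88 in SIVA-WT and 4.56 in SIVA-D160N, far above the other 3 lines. COL11A1 stood at 4.49, 5.67 and 5.33 in the same order. COL4A3 was singled out in parental cells (5.75) and in SIVA-D160N (5.09), and COL18A1 in SIVA-D160N (9.53). In MDA-MB-231 COL4A5 was the lowest of the 4 lines, at -4.33 in SIVA-WT and -1.65 in SIVA-D160N, where it held 0 and 11 counts.

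Among log2 ratios within lines, 3 were singled out. COL4A5 in MDA-MB-231 had 2.68 in SIVA-D160N vs SIVA-WT, on those few counts. COL13A1 in OVCAR8 had 0.33 in SIVA-WT vs parental, the highest of the 4 lines. COL18A1 in HCC1954 had -0.20 in SIVA-WT vs parental, the lowest of the 4 lines, and this ratio rests on the library labelled parental HCC1954, which has no SIVA1 counts.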

How the results depend on the processing

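When every gene with a count was tested (34909 genes, no filter on low counts), 3 of 44 chains passed in SIVA-D160N vs parental (COL3A1, COL15A1 and COL22A1) and 1 in SIVA-WT vs parental (COL3A1), where the filtered test had 0. Of all 34909 genes, 172 and 10 passed in these contrasts. COL22A1 is counted in HCC1954 alone and COL15A1 mainly there, so their calls rest on the library labelled parental HCC1954. With the FDR alone, 10 chains were higher in MDA-MB-231 in place of 6. Without the line as a replicate block, 0 chains passed in each condition contrast, and the block changed no call. Leaving out 1 line at a time also gave 0 to 0 in the 3 condition contrasts. Leaving out 1 condition gave 6 to 7 higher and 15 to 18 lower chains in MDA-MB-231, 11 to 14 and 10 to 13 in HCC1954, 13 to 14 and 9 to 12 in OVCAR8, and 16 to 16 and 6 to 8 in SKOV3. Of the other alternative values for single chains, 1273 kept direction and side of the threshold, 12 passed it anew, 16 no longer passed and 0 reversed. With 1 library per line and condition, ratios within a line cannot be set against a replicate spread.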
